A study of Homo sapiens with 8 samples.

Results

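The 53 genes described here encode the machinery of the G2 phase and of mitosis: cyclins and CDK1, the mitotic kinases, the spindle checkpoint, the kinetochore, the spindle with its motors, and condensin. They were listed by name for these roles, and all 53 are among the 16829 genes of the deposited count table. RNA was sequenced from the colorectal cancer lines RKO, a line deficient in DNA mismatch repair, and SW480, a line with a truncating APC mutation, both human. CYP1B1, which encodes a cytochrome P450 monooxygenase, was raised in RKO (RKO-CYP1B1 against RKO-Control) and lowered in SW480 with a short hairpin (SW480-shCYP1B1 against the non-targeting SW480-shNT). The labels state a CYP1B1 lentivirus for both lines without saying which groups received it, and give proliferation of colorectal cancer cells as the process under study. Each of the 4 groups holds 2 libraries. The labels name 1 hairpin, so an effect of that hairpin on other genes cannot be told apart from that of CYP1B1, and they do not say what the RKO control cells received or whether a line is a single clone. Nothing in them tells if the replicates were grown apart, and p-values here reflect no more than the spread among these libraries, which may be technical.

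Entry into mitosis is driven by CDK1 bound to cyclin A or cyclin B. CDC25 phosphatases switch this kinase on, Aurora and Polo-like kinases help to build the spindle, and the spindle checkpoint restrains the anaphase promoting complex until kinetochores are attached. The complex, with CDC20, then marks securin and cyclin B for destruction, which frees separase to release the sister chromatids. Transcripts of many of these genes accumulate in G2 under the MuvB complex with B-MYB and FOXM1, which acts through a promoter element called the cell cycle genes homology region (CHR), often beside CCAAT boxes bound by NF-Y. In bulk RNA, a larger share of cells in G2 or M and more RNA of a gene per cell cannot be told apart.

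The promoters of the listed genes often held these elements. RefSeq promoter sequences (GRCh38.p14, 250 bases before to 50 after the first listed start) were matched by gene identifier for 45 of the 53 genes. The CHR was searched as TTTGAA or TTCGAA on both strands and was present in 33 of 45 windows (73.3%), compared with 16.6% and 11.2% of the 27305 promoters of the same length and of the 11505 tested genes with a promoter. CCAAT, searched on both strands, was present in 34 of 45 (75.6%), compared with 35.7% and 36.2%, and both elements in 27 of 45 (60.0%), compared with 6.58% and 4.68%. In 14 of the 33 genes the CHR match nearest to the start began 20 to 40 bases before it. A match describes letters and not a bound site. The 100 bases before the start are shown for 7 genes that differ in what happened to them in the 2 lines, with every match on either strand in capitals. They are CKS2 (chr9:89311095-89311194), which rose in both comparisons, CDC20 (chr1:43358881-43358980) and CCNB1 (chr5:69167050-69167149), which rose in RKO and fell in SW480, PLK1 (chr16:23678789-23678888), which rose in RKO, MKI67 (chr10:128126424-128126523), which fell in SW480, CKS1B (chr1:154974581-154974680), which rose in SW480, and CCNB2 (chr15:59105046-59105145), which passed the test in neither. MKI67 lies on the minus strand and the others on the plus strand, and each is printed in the direction of its gene.
CKS2: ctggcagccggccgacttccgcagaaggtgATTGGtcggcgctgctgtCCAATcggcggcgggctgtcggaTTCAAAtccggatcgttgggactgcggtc
CDC20: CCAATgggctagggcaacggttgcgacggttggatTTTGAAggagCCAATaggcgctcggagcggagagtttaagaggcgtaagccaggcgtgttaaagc
PLK1: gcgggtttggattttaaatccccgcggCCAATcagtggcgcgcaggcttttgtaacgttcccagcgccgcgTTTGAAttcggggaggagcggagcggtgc
CCNB1: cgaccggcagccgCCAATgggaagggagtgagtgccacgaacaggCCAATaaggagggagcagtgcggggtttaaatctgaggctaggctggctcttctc
MKI67: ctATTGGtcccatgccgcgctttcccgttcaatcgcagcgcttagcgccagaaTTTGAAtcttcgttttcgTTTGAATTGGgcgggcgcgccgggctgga
CKS1B: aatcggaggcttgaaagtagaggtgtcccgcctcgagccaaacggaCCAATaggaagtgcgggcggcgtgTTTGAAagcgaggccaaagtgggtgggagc
CCNB2: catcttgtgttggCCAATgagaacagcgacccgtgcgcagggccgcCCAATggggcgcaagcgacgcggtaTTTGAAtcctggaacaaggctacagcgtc
In CKS2 the CHR letters read on the opposite strand. In MKI67 the match nearer to the start overlaps a CCAAT box on the opposite strand. The CCNB1 window holds CCAAT boxes but neither TTTGAA nor TTCGAA on either strand, and other spellings of the CHR were not searched. A CHR match was present in 13 of 20 genes that rose in RKO, in 3 of 4 that fell there and in 17 of 21 that did not pass. In SW480 it was present in 5 of 9 that rose, 9 of 13 that fell and 19 of 23 that did not pass.

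The 8 libraries held between 31550173 and 34921085 counts. CYP1B1 stood at 0.686 and 0.701 CPM (counts scaled to the library size and normalised between libraries) in the RKO controls and at 437 and 519 with overexpression, and at 1.44 and 2.20 in shNT and 0.367 and 0.301 in shCYP1B1 cells. The RKO overexpression libraries stood apart from each other: 23.6% of 12616 genes with at least 1 CPM lay more than 1.25-fold apart in the pair, against 8.08% to 8.47% in the other 3 groups. The labels call the source colon tissue as well as cell line. The summed level of 13 colorectal epithelial markers was 251 to 298 CPM in RKO and 5099 to 5749 in SW480, with KRT20, CDX1 and LGALS4 at 0 in every RKO library and EPCAM at 1.69 to 1.99 CPM there. The summed level of 20 fibroblast, endothelial and immune markers was 676 to 787 CPM in RKO, of which CD68 made up 662 to 773, and PTPRC, the pan-leukocyte gene, reached at most 0.258 CPM in any library.

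All 53 genes were detected in all 8 libraries, and all 53 passed the filter on low counts. Levels are compared between genes as FPKM, which scale counts to both library size and transcript length. CKS2, a small subunit that docks CDK1 on its substrates, had the highest level, 228 ± 9.58 FPKM in the RKO controls and 281 ± 5.28 in shNT cells (SD, n = 2). In the RKO controls its paralogue CKS1B (121), securin, PTTG1 (121), and the spindle factor TPX2 (106) followed, with CKS1B and PTTG1 closer to each other than the spread of their libraries. In shNT cells they were PTTG1 (177), UBE2C (165), the ubiquitin-conjugating enzyme of the anaphase promoting complex, and TPX2 (148). The lowest levels in the RKO controls were those of HMMR, a spindle-associated protein (3.87 FPKM), and KIF14, a kinesin of cytokinesis (4.68), and in shNT cells those of CENPE, a kinetochore motor (4.01), and KIF14 (5.66).

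The control cells of the lines differed in most of these genes. Between shNT and RKO control cells 39 of 53 genes were higher in SW480 (73.6%, compared with 41.2% of all 14157 tested genes) and 6 were lower (11.3%, compared with 35.6%), at an adjusted p of 0.05 in edgeR's quasi-likelihood test with Benjamini-Hochberg adjustment over all tested genes, the test used throughout. In either direction, 76.8% of all tested genes passed. The median log2 difference of the 53 genes was 0.53, compared with 0.08 over all tested genes. HMMR stood at 10.6 and 12.2 CPM in the RKO controls and 87.9 and 91.5 in shNT cells (2.98, SE 0.13, adjusted p = 1.79e-09, where the first value in such brackets is the log2 difference, here and below). CDC25B, a phosphatase that activates CDK1, stood at 56.4 and 55.3 and at 410.1 and 398 CPM (2.85, SE 0.11, adjusted p = 5.55e-10). KIF20A, a kinesin of the central spindle, stood at 31.3 and 30.3 and at 147 and 144 CPM (2.24, SE 0.12, adjusted p = 7.29e-09). For these 3 genes both shNT libraries lay far above both RKO controls. The genes that were lower in SW480 were CENPE, at 77.2 and 74.7 in RKO and 30.9 and 37.9 CPM in shNT cells (-1.14, SE 0.12), the kinetochore subunit NUF2, at 29.7 and 31.5 and 18.3 and 22.3 CPM (-0.59, SE 0.13), the checkpoint protein BUB3, at 261 and 269 and 182 and 175 CPM (-0.57, SE 0.06), BUB1B (-0.53), PRC1 (-0.45) and CENPF (-0.44). Of other kinetochore and checkpoint genes, CENPA (1.01), TTK (1.07) and BUB1 (0.21) were higher in SW480, and NDC80 (0.13) and MAD2L1 (-0.06) did not pass. The line and its control construct cannot be told apart in this comparison.

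With CYP1B1 overexpression in RKO, 23 of the 53 genes rose (43.4%) and 4 fell (7.55%), compared with 13.8% and 13.8% of all tested genes (27.6% in either direction). The median log2 fold change was 0.20, compared with 0.00 over all tested genes, and 0 of the 27 changes exceeded 2-fold. Over all tested genes, 2.21% passed with a change over 2-fold. Both overexpression libraries lay above both controls in 31 genes and below them in 6, compared with 28.8% and 30.0% of all tested genes. Of the 23 that rose, 13 passed in all 16 alternatives tried (AURKA, AURKB, CCNB1, CDC20, CDC25B, CDCA3, CDCA5, CKS2, GTSE1, INCENP, PLK1, TACC3 and BIRC5), and of the 4 that fell, NDC80 did. Without control replicate 2, 14 rose and 1 fell. Without control replicate 1, 16 rose and 2 fell, and with the RKO libraries fitted alone 15 rose and 2 fell.

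**Figure D1:**
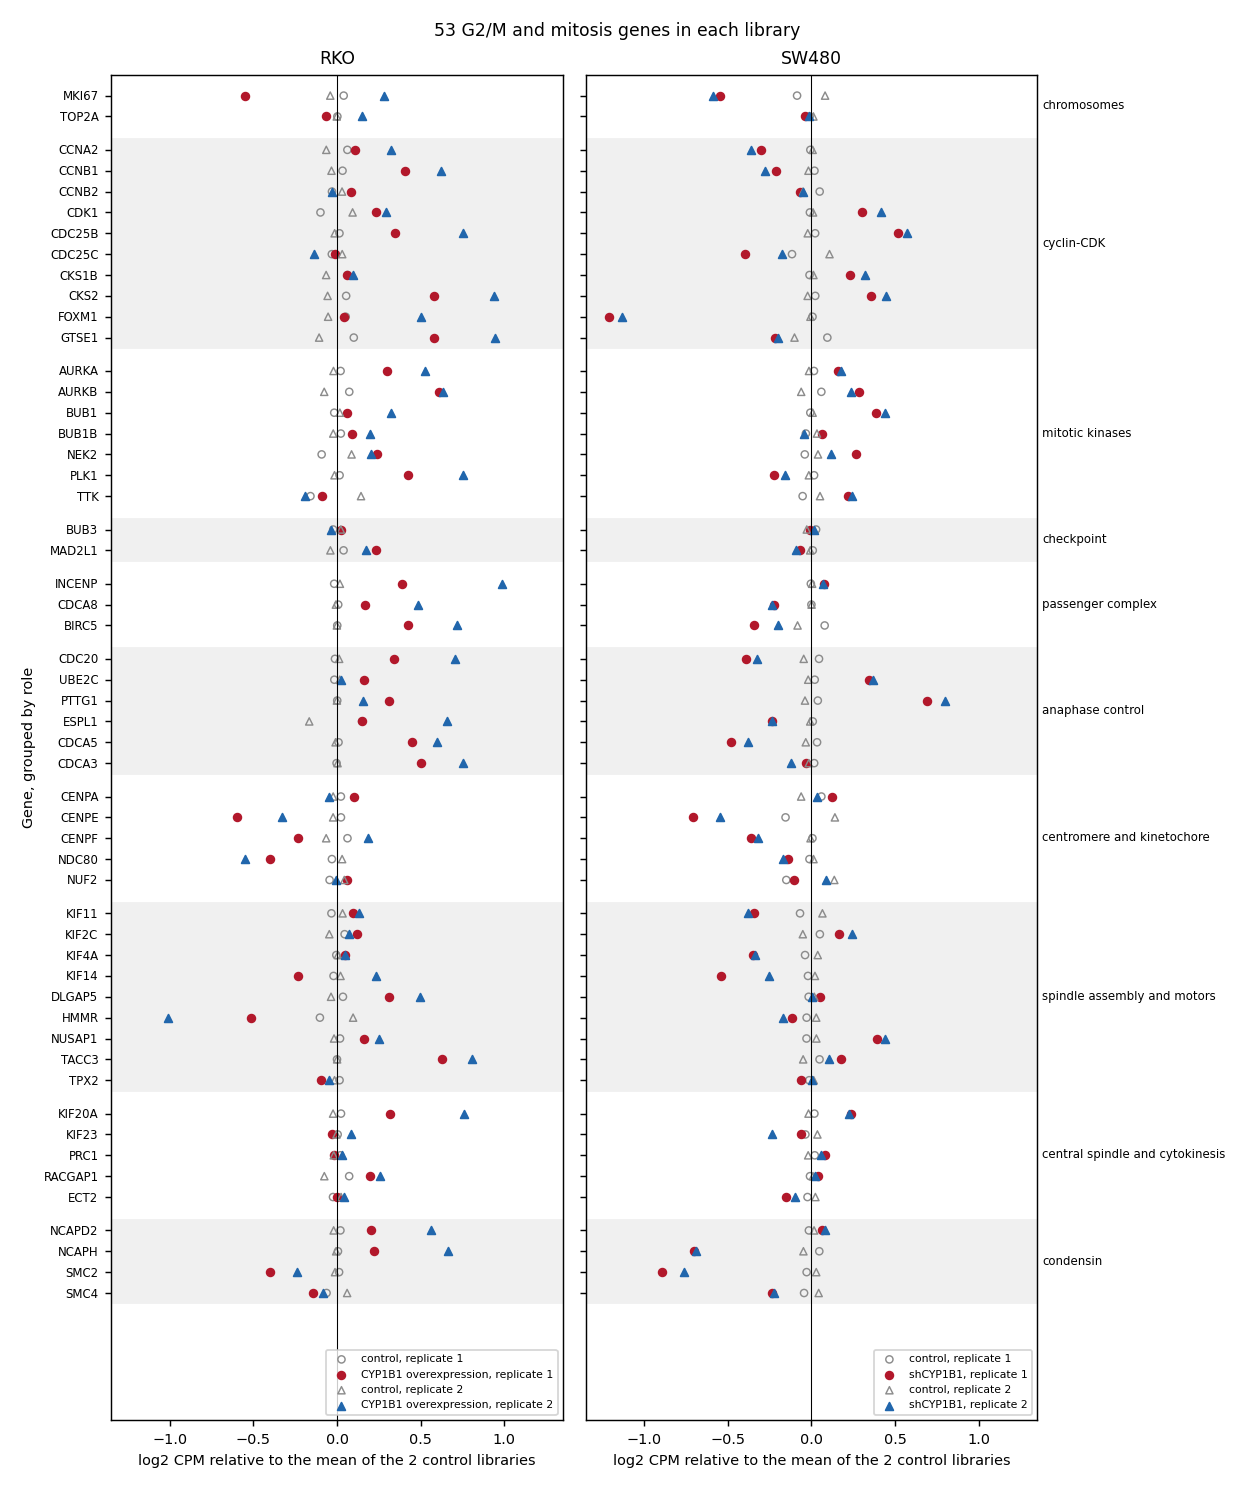
Log2 normalised CPM of each of the 53 genes in each library, relative to the mean of the 2 control libraries of its line, with RKO and SW480 in separate panels and genes grouped by role. Open grey symbols are control libraries and filled symbols manipulated ones (circle, replicate 1, triangle, replicate 2). In RKO MKI67 stood at -0.55 and 0.28 in the overexpression libraries, and in SW480 FOXM1 lies lowest.

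Of 10 genes of the cyclin and CDK1 engine, 5 rose in RKO and 0 fell, compared with 13.8% and 13.8% of all tested genes. CKS2 stood at 142 and 132 CPM in the controls and at 205 and 263 with overexpression (0.77, SE 0.10, adjusted p = 4.53e-04). GTSE1, a microtubule-associated protein of G2, went from 38.0 and 32.9 to 53.0 and 68.2 CPM (0.77, SE 0.12, adjusted p = 0.00116), and cyclin B1, CCNB1, from 132 and 126 to 171 and 199 CPM (0.52, SE 0.08, adjusted p = 9.45e-04). In all 3 genes the overexpression libraries stood clear of the controls. CDC25B rose from 56.4 and 55.3 to 71.0 and 94.1 CPM (0.56, SE 0.11). CDK1 itself rose from 66.6 and 76.0 to 83.8 and 87.3 CPM (0.26, SE 0.08, adjusted p = 0.0355), and kept this call in 8 of 16 alternatives. The remaining genes of the engine did not pass. Cyclin B2, CCNB2, stood at 101 and 105 against 109 and 101 CPM (0.03, adjusted p = 0.835), with overlapping libraries. Cyclin A2, CCNA2, stood at 105 and 96.2 against 108 and 126 CPM (0.22, adjusted p = 0.0758), and CKS1B at 95.9 and 87.8 against 95.6 and 98.3 CPM (0.08, adjusted p = 0.476), while the phosphatase CDC25C was at -0.07.

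Among 7 mitotic kinases, 3 rose and 0 fell (42.9% and 0%, compared with 13.8% and 13.8% of all tested genes). AURKB, the kinase of the chromosomal passenger complex, which corrects faulty attachments, stood at 82.0 and 73.9 CPM in the controls and at 119 and 121 with overexpression (0.62, SE 0.08, adjusted p = 3.05e-04). PLK1, which acts at centrosomes and kinetochores, rose from 95.3 and 93.3 to 126 and 159 CPM (0.60, SE 0.10), and the spindle pole kinase AURKA from 91.4 and 88.8 to 111 and 129.8 CPM (0.42, SE 0.08). The 3 partners of AURKB in the passenger complex rose as well. INCENP, the scaffold, stood at 70.9 and 72.6 and then at 93.8 and 142 CPM (0.72, SE 0.14), survivin, BIRC5, at 69.8 and 69.7 and then at 93.7 and 115 CPM (0.58, SE 0.10), and borealin, CDCA8, rose by 0.33, a call kept in 7 of 16 alternatives. In AURKB both overexpression libraries were alike, whereas INCENP was much higher in replicate 2. The checkpoint kinases BUB1, at 146 and 149 against 154 and 184 CPM (0.20, adjusted p = 0.109), BUB1B (0.15) and TTK (-0.14) did not pass, nor did the centrosomal kinase NEK2 (0.22) or the checkpoint proteins BUB3 (-0.01) and MAD2L1 (0.20).

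Of 6 genes of anaphase control and cohesion, 5 rose (83.3%, compared with 13.8% of all tested genes). CDC20, the activator of the anaphase promoting complex, stood at 80.3 and 81.7 CPM in the controls and at 103 and 132 with overexpression (0.53, SE 0.10, adjusted p = 0.00313). CDCA3, a trigger of mitotic entry, rose from 21.6 and 21.7 to 30.7 and 36.5 CPM (0.63, SE 0.10), and CDCA5 (sororin), which stabilises cohesion, rose by 0.53. PTTG1 rose from 114 and 114 to 141 and 126 CPM (0.23, SE 0.08, adjusted p = 0.0416), a call kept in 5 of 16 alternatives. Separase, ESPL1, rose by 0.42, with overlapping libraries and a call kept in 3 of 16 alternatives, and UBE2C stood at 0.10 and did not pass. PTTG2, a near-identical copy of PTTG1, and KIF4B, a copy of KIF4A, are rows of the same table, so how reads were split within each pair is uncertain.

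The genes that fell in RKO belonged to the kinetochore, the spindle and condensin. NDC80, the microtubule-binding subunit of the outer kinetochore, stood at 38.5 and 40.2 CPM in the controls and at 29.8 and 26.9 with overexpression (-0.47, SE 0.09, adjusted p = 0.00346), while its partner NUF2 stood at 29.7 and 31.5 against 31.9 and 30.5 CPM (0.03, adjusted p = 0.925). CENPE fell from 77.2 and 74.7 to 50.1 and 60.4 CPM (-0.46, SE 0.12), and HMMR from 10.6 and 12.2 to 7.97 and 5.65 CPM (-0.74, SE 0.14, adjusted p = 0.00341). SMC2, an ATPase shared by both condensins, fell from 54.6 and 53.7 to 40.9 and 45.9 CPM (-0.32, SE 0.09). In each gene that fell both overexpression libraries lay below both controls. CENPE and SMC2 lost the call when either control library was left out, SMC2 keeping it in 11 of 16 alternatives, and HMMR lost it without control replicate 2 and with RKO fitted alone. The condensin I subunits NCAPD2 and NCAPH rose by 0.40 and 0.46, from 43.7 and 43.4 to 50.8 and 68.9 CPM for NCAPH, while SMC4, the other ATPase, did not pass (-0.11, adjusted p = 0.264), so that condensin genes moved in both directions. NCAPD2 and NCAPH also lost the call when either control library was left out. The remaining kinetochore genes CENPA (0.03) and CENPF (-0.01) did not pass.

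Of 14 spindle, motor and cytokinesis genes, 5 rose and 1, HMMR, fell, compared with 13.8% and 13.8% of all tested genes. TACC3, which helps to stabilise spindle microtubules, rose from 114 and 114 to 175 and 199 CPM (0.72, SE 0.08, adjusted p = 1.53e-04), KIF20A by 0.55, the spindle protein DLGAP5 by 0.41, the centralspindlin subunit RACGAP1 by 0.23 and the microtubule bundler NUSAP1 by 0.21. The calls of RACGAP1 and NUSAP1 were kept in 9 of 16 alternatives and in 5 of 16 alternatives. The kinesins KIF11 (0.11), KIF2C (0.10), KIF4A (0.05), KIF14 (0.02) and KIF23 (0.03), TPX2 (-0.07), PRC1 (0.01) and ECT2 (0.02), which starts furrowing, did not pass. TOP2A, which disentangles chromosomes, stood at 195 and 195 CPM in the controls and at 186 and 216 with overexpression (0.05, adjusted p = 0.700). The proliferation marker MKI67 stood at 581 and 549 CPM in the controls and at 386 and 686 with overexpression (-0.08, SE 0.19, adjusted p = 0.819). For both genes overexpression replicate 1 lay below both controls and replicate 2 above them.

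**Figure D2:**
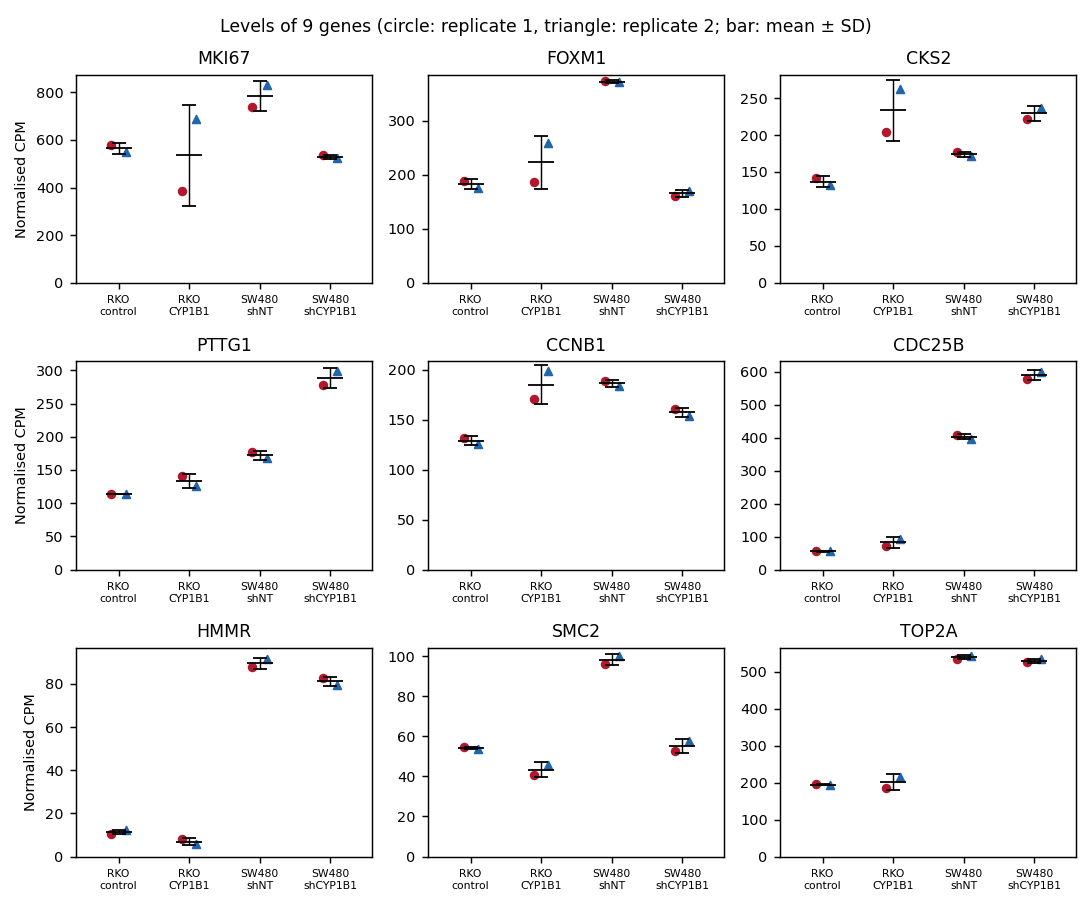
Normalised CPM of selected genes in each of the 8 libraries, by group, on axes that start at 0 (circle, replicate 1, triangle, replicate 2, bar and whiskers, mean ± SD, n = 2). MKI67 stood at 386 and 686 CPM in the RKO overexpression libraries, and FOXM1 at 374 and 371 in shNT and 161 and 170.1 in shCYP1B1 cells.

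MKI67 had the widest gap of the 53 genes between the overexpression libraries, 0.83 on the log2 scale. In that pair 15 of the 53 differed by over 1.25-fold, compared with 23.6% of all genes with at least 1 CPM. In each of the other 3 groups 0 of 53 did, compared with 8.08% to 8.47% of all such genes. INCENP (0.60), ESPL1 (0.51), KIF14 (0.46) and FOXM1 (0.46) were also higher in replicate 2, and HMMR was lower (-0.50). The median of the 53 genes against the control mean was 0.12 in replicate 1, with 38 genes above it, and 0.23 in replicate 2, with 41 above it. The direction of MKI67 and of CENPF, a large kinetochore protein, depended on the library. Without replicate 1 MKI67 had a log2 fold change of 0.28 (adjusted p = 1.49e-04) and CENPF of 0.19 (adjusted p = 0.00864), and without replicate 2 they had -0.55 (adjusted p = 1.25e-08) and -0.23 (adjusted p = 0.00209). FOXM1, the transcription factor of the G2 genes, stood at 189 and 176 CPM in the controls and at 187 and 258 with overexpression (0.29, adjusted p = 0.0935), and its value was 0.50 (adjusted p = 2.40e-08) without replicate 1 and 0.04 (adjusted p = 0.671) without replicate 2. Each of these fits keeps a single overexpression library and takes its spread from the remaining groups. Across the 53 genes the signed log2 difference, overexpression replicate 2 minus replicate 1, tended to be higher for longer transcripts (Pearson's r = 0.47 and Spearman's rho = 0.37). This is a description across genes that share the same 2 libraries. MKI67 had the longest transcript, 13228 bp as implied by its FPKM. Of 19 chaperone genes 16 rose in RKO (84.2%, compared with 13.8% of all tested genes). Their summed level was 10192 and 9562 CPM in the controls and 13712 and 17277 in overexpression replicates 1 and 2. In SW480 that sum was 14731 and 14612 CPM in shNT and 19058 and 19316 in shCYP1B1 cells. The part of transcript length and of the chaperone genes in the results for the 53 genes was not tested.

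With the CYP1B1 hairpin in SW480, 15 of the 53 genes fell (28.3%) and 10 rose (18.9%), compared with 25.3% and 25.3% of all tested genes (50.6% in either direction), shares near the background. The median log2 fold change was -0.06, compared with 0.00 over all tested genes. Of the 53 genes only FOXM1 passed with a change over 2-fold, compared with 13.5% of all tested genes. Both shCYP1B1 libraries lay above both shNT libraries in 19 genes and below them in 27, compared with 40.3% and 40.4% of all tested genes. Of the 15 that fell, 7 passed in all 16 alternatives (CDCA5, CENPE, FOXM1, KIF11, KIF4A, NCAPH and SMC2), as did 5 of the 10 that rose (BUB1, CDC25B, NUSAP1, PTTG1 and UBE2C). The number that fell was 7 without shNT replicate 1, 7 without shNT replicate 2, and 8 and 8 without shCYP1B1 replicates 1 and 2. The number that rose was 6 without shNT replicate 2 and 5 without shCYP1B1 replicate 2. With the SW480 libraries fitted alone, 23 fell and 15 rose.

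Marker genes of cell identity moved in the same comparison. Of 9 tested colorectal epithelial markers 5 fell and 3 rose (55.6% and 33.3%, compared with 25.3% and 25.3% of all tested genes). Their log2 fold changes ran from -3.19 to 2.44 (median -0.86). EPCAM stood at 131 and 131 CPM in shNT and 22.5 and 23.3 in shCYP1B1 cells, while KRT18 rose by 0.27. The sum of 13 epithelial markers was 5313 and 5099 CPM in shNT and 5708 and 5749 in shCYP1B1 cells. Of 11 tested fibroblast, endothelial and immune markers 4 rose and 0 fell (36.4% and 0%, beside the same 25.3% and 25.3%). The sum of all 20 was 27.7 and 33.0 CPM in shNT and 56.2 and 59.2 in shCYP1B1 cells, with PTPRC at or near 0 in each. The part of these markers in the results for the 53 genes was not tested.

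FOXM1 had the largest change of the 53 genes in SW480. It stood at 374 and 371 CPM in shNT and at 161 and 170.1 in shCYP1B1 cells (-1.17, SE 0.12, adjusted p = 1.29e-05), which is 2.25-fold lower. Of the 4 condensin genes, 3 fell, compared with 25.3% of all tested genes. SMC2 stood at 96.2 and 100.1 and then at 52.9 and 57.8 CPM (-0.83, SE 0.09, adjusted p = 1.39e-05), NCAPH at 87.3 and 81.7 and then at 51.9 and 52.3 CPM (-0.70, SE 0.12, adjusted p = 5.42e-04), and SMC4 fell by 0.23, a call kept in 12 of 16 alternatives, while NCAPD2 did not pass (0.07). SMC4 shares exons with IFT80 and TRIM59, which lie on the opposite strand. CENPE fell from 30.9 and 37.9 to 21.1 and 23.6 CPM (-0.63, SE 0.12). MKI67 fell from 739 and 829.9 to 536 and 523 CPM (-0.57, SE 0.19, adjusted p = 0.0252). It kept this call in 10 of 16 alternatives, with values from -0.64 to -0.48. The call was lost when any of the 4 SW480 libraries was left out, with DESeq2 (adjusted p = 0.132) and with limma on FPKM (adjusted p = 0.0550). The SE draws on all 8 libraries, the RKO overexpression pair included. With SW480 fitted alone the value was -0.57 with an SE of 0.035, and it passed.

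**Figure D3:**
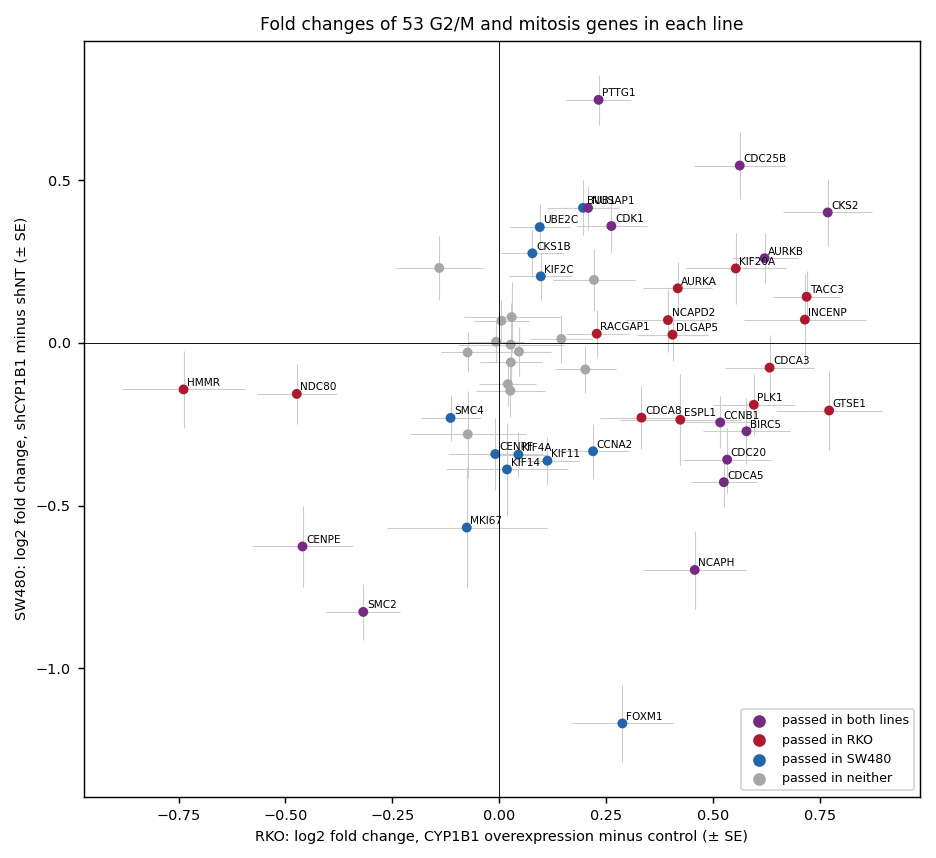
Log2 fold change of each of the 53 genes with CYP1B1 overexpression in RKO (x axis) and with the CYP1B1 hairpin in SW480 (y axis), with bars of 1 SE and colour by the line in which the gene passed. CKS2, CDC25B and PTTG1 lie above 0 on both axes, CENPE and SMC2 below 0 on both, and CCNB1, CDC20, CDCA5, NCAPH and BIRC5 above 0 on the x axis and below 0 on the y axis.

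The 10 genes that rose with the hairpin were led by PTTG1 and CDC25B. PTTG1 stood at 177 and 168 CPM in shNT and at 278 and 299 in shCYP1B1 cells (0.75, SE 0.08, adjusted p = 1.28e-05). CDC25B rose from 410.1 and 398 to 579 and 600.0 CPM (0.54, SE 0.10, adjusted p = 0.00112), BUB1 from 169.7 and 171 to 223 and 232 CPM (0.42, SE 0.08) and NUSAP1 from 124 and 129 to 165 and 171 CPM (0.41, SE 0.07). In each of these 4 genes the shCYP1B1 libraries stood well above both shNT libraries. CKS2 rose from 176 and 171 to 222 and 237 CPM (0.40, SE 0.10) and CKS1B from 107 and 109 to 126 and 135 CPM (0.28, SE 0.07). AURKB rose from 146 and 135 to 171 and 166 CPM (0.26, SE 0.08), UBE2C by 0.36 and KIF2C by 0.20, of which KIF2C kept its call in 7 of 16 alternatives. CDK1 rose while 2 of its 3 cyclins fell, compared with 25.3% of all tested genes that fell. CDK1 rose from 74.3 and 75.3 to 92.2 and 99.7 CPM (0.36, SE 0.08), CCNA2 fell from 115 and 116 to 93.4 and 89.8 CPM (-0.33, SE 0.08) and CCNB1 from 189 and 184 to 161 and 154 CPM (-0.24, SE 0.08, adjusted p = 0.0245), while CCNB2 stood at 135 and 126 against 124 and 126 CPM (-0.06, adjusted p = 0.519). The call of CCNB1 was lost when any SW480 library was left out. Those of the other genes were kept in 15 of 16 alternatives for CDK1, 14 for CKS2, 13 for CCNA2, 13 for CKS1B and 13 for AURKB. CCNA2 shares exonic bases with EXOSC9 on the opposite strand, and NUSAP1 shares 1787 of its 2454 exonic bases with AC087721.2 on the same strand.

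The remaining genes that fell in SW480 were CDC20, from 203 and 191 to 150.2 and 157 CPM (-0.36, SE 0.10), BIRC5, from 99.0 and 88.5 to 73.9 and 81.5 CPM (-0.27, SE 0.10), CDCA5 (-0.43), CENPF (-0.34) and the motors KIF14 (-0.39), KIF11 (-0.36) and KIF4A (-0.34). Of 16 alternatives, the call was kept in 12 for CDC20, 12 for CENPF, 8 for KIF14 and 7 for BIRC5, and in all 16 for CDCA5, KIF11 and KIF4A. CDC20, CENPF and BIRC5 lost it when any SW480 library was left out. PLK1 stood at 174 and 169.9 against 147 and 154 CPM (-0.19, adjusted p = 0.118) and AURKA at 176 and 172 against 194 and 197 CPM (0.17, adjusted p = 0.101). Neither kinase passed, although the libraries of the groups did not overlap. TOP2A stood at 535 and 544 against 526 and 534 CPM (-0.03, adjusted p = 0.786). Of the 5 genes of the central spindle and cytokinesis, 0 passed in SW480, compared with 50.6% of all tested genes. Their values ran from -0.15 (KIF23) to 0.23 (KIF20A). All 28 genes that did not pass in SW480 lay between -0.28 (CDC25C) and 0.23.

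The 2 comparisons share no libraries, but both come from a single fit with a spread shared over all 8 libraries. Their calls are therefore not independent. With SW480 fitted alone further genes passed there, among them AURKA, PLK1, GTSE1, HMMR and TACC3. With RKO fitted alone 17 of its 27 calls were kept. AURKB, CDC25B, CDK1, CKS2, NUSAP1 and PTTG1 rose with overexpression in RKO and also with the hairpin in SW480 (6 of 53, 11.3%, compared with 4.49% of all tested genes). CENPE and SMC2 fell in both (2 of 53, 3.77%, compared with 4.62% of all tested genes). CCNB1, CDC20, CDCA5, NCAPH and BIRC5 rose with overexpression and fell with the hairpin (5 of 53, 9.43%, compared with 3.45% of all tested genes), and 0 of 53 fell with overexpression and rose with the hairpin (compared with 3.14% of all tested genes). A further 14 genes passed in neither line (26.4%, compared with 37.5% of all tested genes), among them TOP2A, TPX2, PRC1, BUB3, CENPA and CCNB2.

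The difference between the lines in the effect of high against low CYP1B1 was tested for each gene, with the RKO effect minus the SW480 effect and both taken as the group with more CYP1B1 against the group with less. It passed for 27 of the 53 genes, compared with 42.6% of all tested genes, above 0 in 20 (37.7%, compared with 21.0% of all tested genes) and below 0 in 7 (13.2%, compared with 21.6%). The largest above 0 were those of CKS2 (1.17, SE 0.15, adjusted p = 9.04e-05), CDC25B (1.11), PTTG1 (0.98), AURKB (0.88) and TACC3, which stood at 149 and 139.5 against 163 and 156 CPM in SW480 (0.86). The largest below 0 were those of SMC2 (-1.14, SE 0.12, adjusted p = 3.01e-05), CENPE (-1.09), HMMR, which stood at 87.9 and 91.5 against 82.8 and 79.7 CPM in SW480 (-0.88), FOXM1 (-0.88) and NDC80, at 42.8 and 43.5 against 39.1 and 38.3 CPM (-0.63). For the 5 genes that rose with overexpression and fell with the hairpin the difference did not pass. It stood at 0.27 for CCNB1, 0.17 for CDC20, 0.10 for CDCA5, 0.31 for BIRC5 and -0.24 for NCAPH (adjusted p from 0.0738 to 0.506). Without overexpression replicate 1 it passed for CCNB1, CDC20 and BIRC5, and without overexpression replicate 2 for NCAPH. Without overexpression replicate 2 the differences below 0 numbered 13.

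Counts for other genes of the cell cycle are given beside the shares of all tested genes, 13.8% that rose and 13.8% that fell in RKO, and 25.3% and 25.3% in SW480. Of 99 further mitosis genes, 23 rose and 13 fell in RKO (23.2% and 13.1%), with a median log2 fold change of 0.03, and 10 rose and 48 fell in SW480 (10.1% and 48.5%), with a median of -0.23. In RKO the tubulin gene TUBB4B (1.24) and the chromokinesin KIF22 (0.95) rose most, and NDE1 (-0.57) and SKA1 (-0.48) fell most. In SW480 ESCO2, the acetyltransferase of cohesion, and the centromere gene CENPM fell most (-1.81 and -1.22), and PSRC1 and the checkpoint gene MAD1L1 rose most (0.87 and 0.63). Of 16 genes of the anaphase promoting complex, 3 rose and 2 fell in RKO (18.8% and 12.5%), with ANAPC2 at 1.07 and CDC27 at -0.40. In SW480 3 of the 16 rose and 8 fell, with FZR1 at 0.42, CDC16 at -0.75 and ANAPC2 at -0.72.

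Of 18 regulators of the DREAM, MuvB and E2F complexes, which repress or activate cell cycle promoters, 5 rose and 4 fell in RKO (27.8% and 22.2%, median -0.03), and 3 rose and 13 fell in SW480 (16.7% and 72.2%, median -0.52). E2F2 and the E2F partner TFDP1 fell most in SW480 (-1.73 and -1.16), and LIN37 of the MuvB core rose there (1.04). In RKO E2F7 and LIN54 fell (-1.03 and -0.80), and LIN37 and E2F1 rose (0.61 and 0.58). Among 46 genes of S phase and replication, RKO showed 21 that rose and 0 that fell (45.7% and 0%, median 0.28), and 1 rose and 35 fell in SW480 (2.17% and 76.1%, median -0.66), beside medians of 0.20 and -0.06 for the 53 genes. Of 11 genes that can hold cells in G2, 2 rose and 3 fell in RKO (18.2% and 27.3%), with SFN at 0.80, GADD45A at -1.28 and GADD45B at -0.56. In SW480 3 rose and 4 fell (27.3% and 36.4%), with GADD45B at 0.83, the CDK inhibitor CDKN1A at 0.64 and SFN at -0.60.

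**Figure D4:**
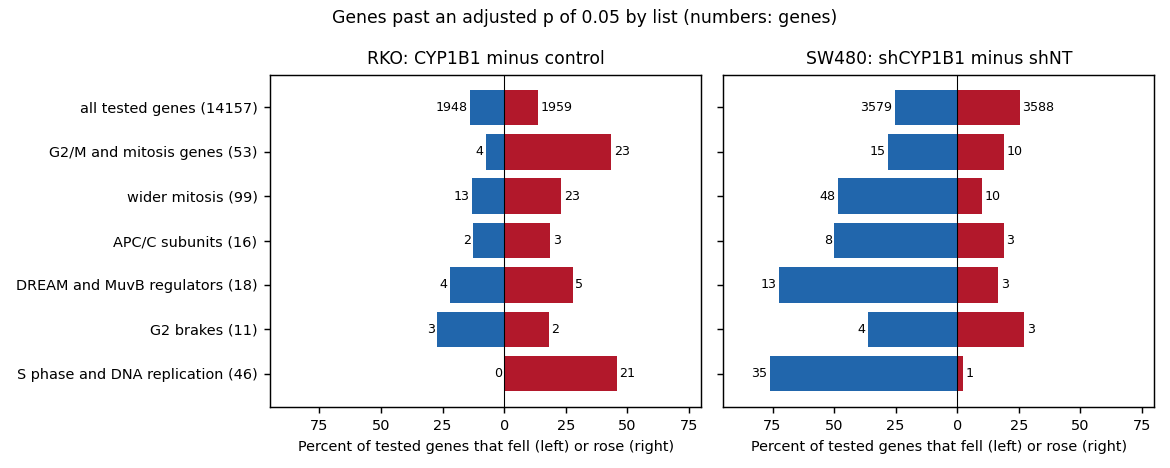
Percent of each gene list that rose or fell at an adjusted p of 0.05 in RKO and in SW480, beside all tested genes. Of the 53 genes 23 rose in RKO and 15 fell in SW480, and of the 46 replication genes 21 rose in RKO and 35 fell in SW480.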

How the data were processed

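The authors deposited raw counts per gene and FPKM for the same genes, with GRCh38.p13 as the genome build, per the submitters' processing notes. For the aligner, the counter, the annotation and the use of strand, the sources used here give nothing. The library kit marks strand, per the labels' protocols. Of the 53 genes, 14 share at least 50 exonic bases with another gene in GENCODE release 29 (PLK1, CCNA2, CDCA3, NUSAP1, NCAPD2, PRC1 and SMC4 among them), and their reads may be mixed. The largest overlap of PRC1, which shares exons with genes on both strands, covers 2716 of its 4168 exonic bases. That of NUSAP1 lies on the same strand and covers 1787 of 2454. The deposited FPKM follow from the counts with 1 length per gene.

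Groups came from the sample titles. Genes were filtered with filterByExpr (minimum count 10, total 15), scaled with TMM and fitted over all 8 libraries with 1 coefficient per group (4 residual degrees of freedom) in edgeR 4.0.16 under R 4.3.3, with Benjamini-Hochberg adjustment over the 14157 genes tested and a threshold of 0.05. The SE given with edgeR is the absolute log2 difference divided by the square root of the test's F statistic. An exact permutation of 2 against 2 libraries cannot go below p = 0.333 and was not used. The genes and lists were chosen with earlier results of these data known. Any of the 53 genes may be named, 16 fixed genes and those with the 5 largest calls each way (3 between control lines) have values per library, and other lists name up to 2 genes each way per line. Results were recomputed with DESeq2 1.42.0, with limma 3.58.1 on log2(FPKM + 1), with scaling by RLE or by library size alone, without the filter or with 1 CPM in 4 libraries, with each line fitted alone, with a replicate block, and after leaving out single libraries. The fit was tested on simulated data.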

Additional observations from a re-analysis of the deposited data

Results flagged for a closer look

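For 27 of the 53 genes the effect of high against low CYP1B1 differed between RKO and SW480 in the test of that difference (edgeR's quasi-likelihood test, Benjamini-Hochberg adjusted p under 0.05, compared with 42.6% of all tested genes). The values are log2 differences, RKO effect minus SW480 effect. Among genes of the cyclin and CDK1 engine and its regulators they were 1.17 for CKS2, 1.11 for CDC25B, 0.62 for CDK1, 0.56 for GTSE1, 0.35 for CKS1B and -0.88 for FOXM1. Among the kinases and passenger genes they were 0.88 for AURKB, 0.79 for INCENP, 0.61 for BUB1, 0.59 for AURKA, 0.42 for NEK2 and 0.41 for PLK1. Genes of anaphase control stood at 0.98 for PTTG1, 0.56 for CDCA3 and 0.45 for UBE2C. At the kinetochore they were -1.09 for CENPE and -0.63 for NDC80. Spindle and cytokinesis genes stood at 0.86 for TACC3, 0.78 for KIF20A, 0.62 for NUSAP1, 0.43 for DLGAP5, 0.30 for KIF2C, -0.30 for KIF4A and -0.88 for HMMR, and condensin genes at 0.47 for NCAPD2, -0.34 for SMC4 and -1.14 for SMC2. Of these, 13 of the 20 above 0 and 5 of the 7 below 0 passed in all 15 alternatives. The lines also differ in the way CYP1B1 was changed, so line and manipulation cannot be told apart.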

How the results depend on the processing

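With each library left out in turn, 14 to 29 of the 53 genes rose and 1 to 6 fell in RKO, 5 to 14 rose and 7 to 22 fell in SW480, 14 to 27 differences between lines were above 0 and 5 to 13 below, and 31 to 40 genes were higher and, in every case, 6 lower in shNT than in RKO control cells. With each line fitted alone, 15 rose and 2 fell in RKO, and 23 fell in SW480. The cause of these shifts was not tested. Under the other scalings, filters and tools all of these counts stayed within 1.5 times of the reported ones. No gene with a reported call changed sign in that comparison under any alternative. MKI67 and CENPF, which had no call in RKO, took opposite signs there depending on which overexpression library was left out. Same-numbered libraries did not deviate together (r = -0.0330 in RKO and -0.00514 in SW480), so the numbers were not taken as pairs. With the replicate block, 19 rose and 4 fell in RKO, 9 rose and 15 fell in SW480, and 19 and 7 differences between lines passed. All 53 genes lay well above the count filter in every library, and precision is limited by the 2 libraries in each group.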
